A study of Mus musculus with 17 samples.

Results

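The endocytosis and endosome sorting genes described here are 39 genes, listed by name, whose proteins carry membrane cargo from the cell surface into endosomes and on to recycling or degradation. All 39 were found among the 26131 genes of the count matrix, and the rule uses no measured value. They fall into 7 groups by role, which are the clathrin coat (9 genes), membrane fission (3), the early endosome (4), recycling (8), retromer and sorting nexins (6), ESCRT (5), and the late endosome with its cargo (4).

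In clathrin-mediated endocytosis the AP-2 adaptor gathers receptors at the plasma membrane, clathrin bends the membrane into a coated pit, and dynamin cuts the pit free. The vesicle fuses with Rab5-positive early endosomes, from which Rab4, Rab11, Rab35 and the EHD ATPases return membrane to the surface, retromer and the sorting nexins retrieve selected cargo, and ESCRT with Rab7 sends the rest to lysosomes. The transferrin receptor is a classical cargo of this route, taken up through clathrin-coated pits and recycled.

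The study compared how far intravenous test articles lowered the nuclear RNA Malat1 in the brain. Single-nucleus RNA was counted from the posterior brain of 17 female mice aged 2.3 months, all homozygous for a human transferrin receptor knock-in (hTfR KI HOM), so every group, saline included, carried that allele. Frozen tissue was homogenised, and DAPI-stained nuclei were sorted by flow cytometry before droplet capture. Dosing was 4 times over 24 days, with harvest 72 hours after the final dose. The groups were saline (n = 4), Malat1 ASO, a free antisense oligonucleotide, at 2 mg per kg (n = 4), anti-TfR:Malat1, labelled TfR-Malat1, at 50 mg per kg (n = 6), and OTV:Malat1 at 50 mg per kg (n = 3). The saline animals also carry a dose label of 50 mg per kg, whose meaning is not given. Each library is 1 animal, and in the treatment comparisons p-values measure the spread between these animals. In the comparison of classes of nuclei within saline, all classes come from the same 4 animals and the animal is a block. The p-values there measure the spread that remains once differences between animals are removed.

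The matrix held 284074 nuclei, with 55393588 to 79866411 unique molecular identifiers (UMIs, counted RNA molecules) per animal. Nuclei were placed in 7 classes from the deposited cell type labels and clusters, and 14734 nuclei (5.19%) stayed outside them. These were all 2917 nuclei of cluster 17 and 2541 of cluster 18, of which 76.5% and 82.7% were called doublets, the 103 nuclei of cluster 19, and 9173 nuclei whose label was not that of their cluster's class. The classes held 173734 neurons, 73156 oligodendrocytes, 8092 microglia, 7766 nuclei of cluster 13, 4793 astrocytes, 1203 vascular nuclei and 596 perivascular macrophages. In saline, the summed level of each cell type's marker list was highest in its own class, and all 6 oligodendrocyte precursor markers were highest in cluster 13, which is called precursor-like here although most of its nuclei were labelled neurons. The 6 neuronal markers summed to 16534 CPM in neurons and to 943 to 1832 CPM in the other classes, and the part of such RNA in low levels was not tested. CPM is a gene's UMI count scaled to a common total of UMIs other than Malat1. It is not scaled by gene length, and levels are therefore compared between classes and animals for 1 gene at a time. The doublet calls deposited with the matrix covered 16.8% of nuclei, and 20326 nuclei (7.16%) had a barcode that also occurred in another library.

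The promoters of the 3 dynamins, Picalm and Ehd4 are shown because these genes, 4 of which act at the coated pit, had their highest levels in 4 different classes. Each line gives the 250 bases before the RefSeq start on GRCm38.p6, 5′ to 3′, with capitals marking a match on either strand to the E-box (CACGTG), the GC box (GGGCGG), the cAMP response element (TGACGTCA), the CCAAT box (CCAAT), the GATA motif (AGATAA), the ETS motif of the PU.1 type (AGGAAGT) or the TATA box (TATAAA).
Dnm1 (chr2:32353330-32353579, minus strand): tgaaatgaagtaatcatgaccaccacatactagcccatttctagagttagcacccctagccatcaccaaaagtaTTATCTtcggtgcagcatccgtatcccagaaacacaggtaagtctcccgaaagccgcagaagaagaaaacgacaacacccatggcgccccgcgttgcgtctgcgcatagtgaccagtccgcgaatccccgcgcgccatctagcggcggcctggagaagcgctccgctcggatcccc
Dnm2 (chr9:21424658-21424907, plus strand): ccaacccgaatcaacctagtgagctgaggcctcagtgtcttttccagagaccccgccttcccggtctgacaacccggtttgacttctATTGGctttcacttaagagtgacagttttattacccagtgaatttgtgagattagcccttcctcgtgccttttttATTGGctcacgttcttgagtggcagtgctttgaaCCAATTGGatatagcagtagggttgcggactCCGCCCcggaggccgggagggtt
Dnm3 (chr1:162478035-162478284, minus strand): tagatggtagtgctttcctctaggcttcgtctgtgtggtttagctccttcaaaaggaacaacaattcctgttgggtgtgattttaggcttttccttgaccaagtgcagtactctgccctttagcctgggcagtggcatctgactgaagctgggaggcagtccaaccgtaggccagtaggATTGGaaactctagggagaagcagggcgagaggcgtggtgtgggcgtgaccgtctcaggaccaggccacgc
Picalm (chr7:90129963-90130212, plus strand): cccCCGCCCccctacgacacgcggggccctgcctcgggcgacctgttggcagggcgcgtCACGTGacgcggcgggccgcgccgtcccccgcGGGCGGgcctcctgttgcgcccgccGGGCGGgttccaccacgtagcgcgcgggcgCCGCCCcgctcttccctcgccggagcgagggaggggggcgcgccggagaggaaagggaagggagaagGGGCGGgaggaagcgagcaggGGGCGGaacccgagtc
Ehd4 (chr2:120154576-120154825, minus strand): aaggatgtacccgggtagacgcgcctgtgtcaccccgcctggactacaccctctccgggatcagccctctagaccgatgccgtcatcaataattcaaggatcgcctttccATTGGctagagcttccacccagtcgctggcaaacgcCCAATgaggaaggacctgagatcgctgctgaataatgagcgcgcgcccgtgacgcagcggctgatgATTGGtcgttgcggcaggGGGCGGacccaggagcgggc

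Promoters of the same length were matched for 34 of the 39 members and for 27025 genes in all. The GC box was present in 61.8% of the members' promoters and 32.9% of all promoters, the CCAAT box in 44.1% and 34.5%, the E-box in 14.7% and 6.05%, and the cAMP response element in 8.82% and 1.62%. The TATA box was present in 5.88% of the members' promoters and 13% of all, the GATA motif in 5.88% and 10.3%, and the ETS motif in 2.94% and 7.80%. The median GC content was 61% over the members and 52% over all promoters. The motif matches describe letters in these windows and no binding was measured.

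In saline, microglia and perivascular macrophages, the macrophages of the brain tissue and of its vessels, had the highest mean log2(CPM + 1) for 12 of 39 members each (30.8%, against 23.4% and 12.3% of all genes tested). Neurons had the lowest mean for 18 members (46.2%, against 15.0% of all genes), and perivascular macrophages, the class with the fewest UMIs, for 8 (20.5%, against 46.2%). Each class was compared with the unweighted mean of the other classes in 1 edgeR fit over all 12368 genes tested, with the animal as a block and a Benjamini-Hochberg adjusted threshold of 0.05. The choice of scaling moved the median of all genes by 0.16 (astrocytes) to 0.78 (perivascular macrophages) on the log2 scale and changed many calls, so a call is counted here only when it was made in the same direction under TMM, RLE and plain library totals, without each saline animal in turn, without the perivascular macrophages and by DESeq2. For the perivascular macrophages themselves, with 7 calls, the fit without them does not exist and was not required. By that rule 64 of the 273 member and class pairs were called, 33 higher and 31 lower, over 24 of the 39 members. That is 23.4%, near the 23.2% of all gene and class pairs. The called pairs were 21 of 63 for the clathrin coat (33.3%), 11 of 21 for the dynamins (52.4%), 2 of 28 for early endosome genes (7.14%) and 14 of 56 for recycling genes (25.0%). They were 9 of 42 for retromer and sorting nexins (21.4%), 1 of 35 for ESCRT genes (2.86%) and 6 of 28 for late endosome and cargo genes (21.4%). The other 15 members, Ap2a1, Ap2b1, Ap2m1, Rab5a, Rab5b, Eea1, Rab35, Vps35, Vps29, Snx3, Hgs, Stam, Tsg101, Vps4a and M6pr, had no such call in any class. The ranks above and the overlaps of animals below use CPM, which is scaled by library totals alone. With library totals the all-gene median in perivascular macrophages was 0.09, against -0.43 with RLE and -0.69 with TMM. Log2 differences are from TMM fits unless another scaling is named, so they can order classes otherwise than CPM does.

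In microglia 9 members were higher (23.1%, against 17.6% of all genes) and 2 lower (5.13%, against 7.92%). In neurons 5 were higher (12.8%, against 23.6%) and 12 lower (30.8%, against 12.5%). Perivascular macrophages had 6 higher (15.4%, against 5.64%) and 1 lower (2.56%, against 4.76%). Oligodendrocytes had 6 higher (15.4%, against 18.9%) and 3 lower (7.69%, against 11.0%), and precursor-like nuclei had 5 higher (12.8%, against 18.2%) and 6 lower (15.4%, against 6.95%). Astrocytes had 0 higher (against 16.8%) and 7 lower (17.9%, against 4.93%), and vascular nuclei had 2 higher (5.13%, against 10.8%) and 0 lower (against 3.09%). Shares of called members near the share of all genes, as in microglia and oligodendrocytes, are not a result about these genes.

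**Figure D1:**
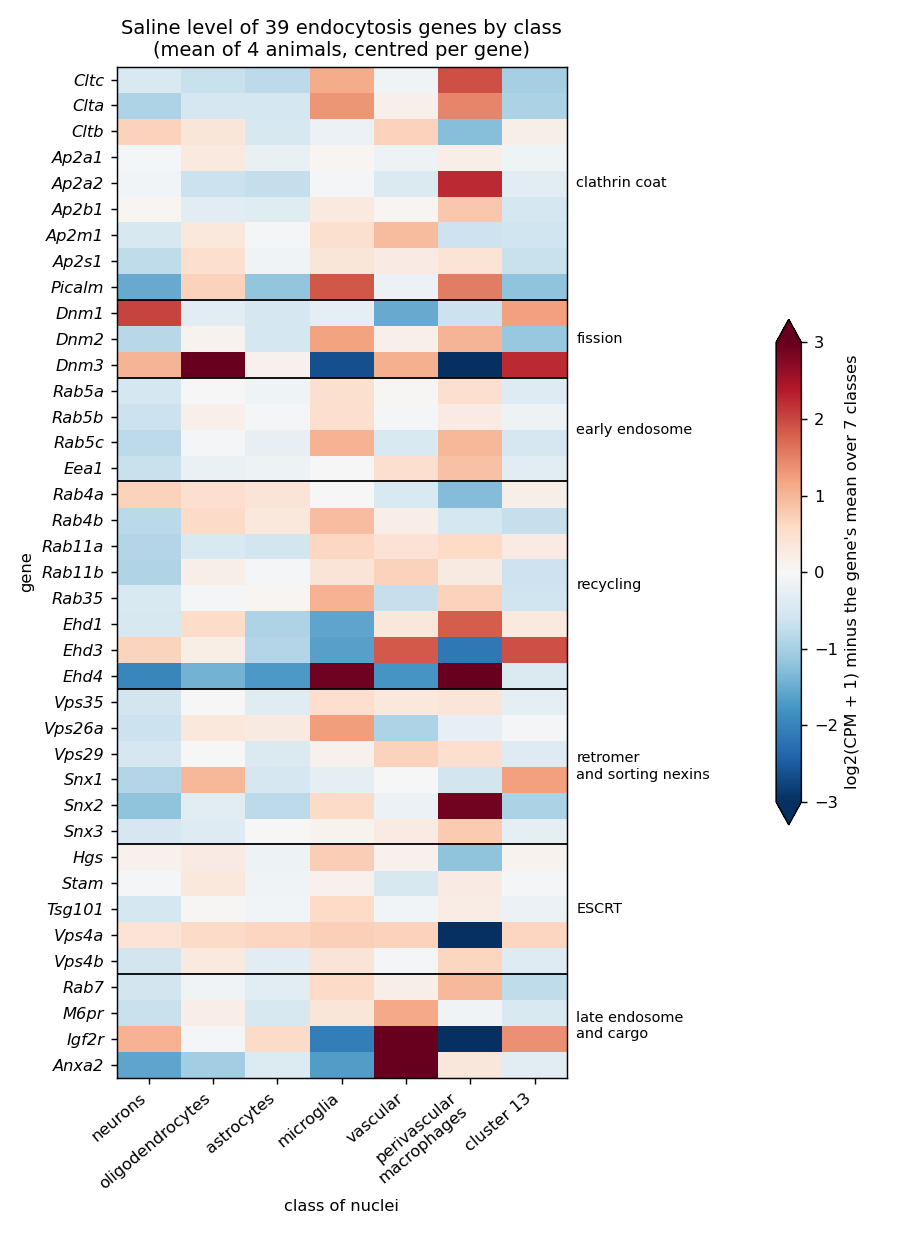
Heatmap of the 39 genes (rows, by role) over the 7 classes of nuclei (columns) in saline. Colour is the mean log2(CPM + 1) of 4 animals minus the gene's mean over the classes, and the macrophage columns are the highest for 24 genes, 12 in microglia and 12 in perivascular macrophages. CPM is scaled by library totals alone, and ranks can differ under another scaling.

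Of the 9 clathrin coat genes, 3 were called higher in microglia, 4 in perivascular macrophages, and 1 each in neurons and oligodendrocytes. Lower calls numbered 4 in astrocytes, 3 each in neurons and precursor-like nuclei, and 2 in oligodendrocytes, and the shares of all genes for each class are those given above. Picalm, a clathrin assembly protein that brings membrane lipids and vesicle fusion proteins into the coat, stood at 1078, 1044, 1116 and 1292 CPM in the 4 saline animals in microglia. It stood at 837, 801, 941 and 1044 CPM in perivascular macrophages and at 463, 469, 532 and 554 CPM in oligodendrocytes. In neurons it stood at 98.4, 106, 113 and 114 CPM, so the lowest microglial animal lay above every neuronal, astrocytic and oligodendrocytic animal, and every neuronal animal lay below every animal of the other classes. Against the mean of the other classes Picalm was higher in microglia by 2.11 (SE 0.07, edgeR adjusted p = 3.72e-42) on the log2 scale and in oligodendrocytes by 1.12 (SE 0.06, edgeR adjusted p = 2.67e-27). In neurons the difference was -1.33 (SE 0.07, edgeR adjusted p = 1.20e-28). In astrocytes Picalm stood at 125, 152, 119 and 152 CPM, and in precursor-like nuclei at 129, 140.1, 128 and 141 CPM. Both classes lay below oligodendrocytes in every animal.

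Clathrin itself was highest in the macrophages. The heavy chain Cltc, which forms the legs of the clathrin triskelion, stood at 340.1, 333, 384 and 332 CPM in microglia and at 529.9, 572, 564 and 783 CPM in perivascular macrophages. In precursor-like nuclei it stood at 70.6, 80.5, 82.4 and 86.1 CPM, and in astrocytes at 82.8, 83.4, 78.0 and 129.6 CPM. The lowest perivascular macrophage value was above the values of every animal in every other class. The light chain Clta stood at 281, 347, 366 and 232 CPM in microglia and at 61.1, 67.7, 69.6 and 53.1 CPM in neurons, with no overlap, and was higher in microglia by 1.50 (SE 0.09, edgeR adjusted p = 2.42e-25) and in perivascular macrophages by 0.93 (SE 0.24, edgeR adjusted p = 0.00182). With library totals the Clta differences were 1.56 in microglia and 1.71 in perivascular macrophages, so the order of these classes turned with the scaling. The other light chain, Cltb, was higher in neurons than in microglia. It stood at 67.5, 58.3, 64.5 and 56.0 CPM in neurons and at 22.9, 33.6, 47.2 and 34.0 CPM in microglia, and it was higher in neurons than in the mean of the other classes by 1.05 (SE 0.12, edgeR adjusted p = 2.21e-12). Vascular nuclei had a mean of 71.3 ± 46.3 CPM (SD, n = 4), which was not called.

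Among the AP-2 subunits, which bind sorting signals in receptor tails and link them to clathrin, Ap2a2 had the widest range. This alpha subunit stood at 669, 315, 564 and 261 CPM in perivascular macrophages and at 49.7, 47.6, 59.3 and 56.3 CPM in astrocytes, the class with the lowest mean. The lowest macrophage animal lay above all animals of the other classes, and the difference in this class was 1.93 (SE 0.23, edgeR adjusted p = 1.59e-10). The counts behind it were 59 UMIs in 136 nuclei. In neurons Ap2a2 stood at 91.5, 83.5, 83.2 and 76.2 CPM, and its direction there turned with the scaling, from 0.34 with TMM to -0.11 with library totals. The sigma subunit Ap2s1 was lower in neurons by that comparison, at -0.82 (SE 0.17), with a mean of 10.1 ± 1.24 CPM (SD, n = 4) against 26.0 ± 3.80 CPM in oligodendrocytes. The alpha subunit Ap2a1, the beta subunit Ap2b1 and the mu subunit Ap2m1 had class means of 36.5 to 51.9, 106 to 263 and 17.8 to 53.8 CPM.

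The 3 dynamins, the GTPases that cut coated pits from the membrane, had their highest levels in 3 different classes. Dnm1, the dynamin of synaptic vesicle recycling, stood at 141, 137, 143 and 154 CPM in neurons. In oligodendrocytes it stood at 24.0, 27.1, 32.1 and 26.8 CPM and in astrocytes at 23.0, 20.8, 34.3 and 19.7 CPM. Every neuronal animal lay above every animal of the other classes, and the difference in neurons was 2.44 (SE 0.10, edgeR adjusted p = 3.85e-34). Precursor-like nuclei came next at 83.3, 55.4, 109 and 92.3 CPM, higher than the mean of the other classes by 1.38 (SE 0.16, edgeR adjusted p = 1.10e-11).

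Dnm2, the dynamin found in most cell types, was high in macrophages and low in the classes where Dnm1 was high. It stood at 428, 426, 463 and 451 CPM in microglia and at 335, 286, 527 and 464 CPM in perivascular macrophages, which overlapped. In neurons it stood at 111, 111, 109.9 and 98.3 CPM and in precursor-like nuclei at 92.8, 93.0, 77.0 and 87.3 CPM, and those 4 animals were below the animals of all other classes. Dnm2 was higher in microglia by 1.32 (SE 0.08, edgeR adjusted p = 2.47e-24), and the difference in precursor-like nuclei was -1.03 (SE 0.10, edgeR adjusted p = 2.46e-14).

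Dnm3, a dynamin of the postsynaptic side in neurons, was highest in oligodendrocytes. It stood at 2195, 2043, 1866 and 2008 CPM there, at 1027, 964, 878 and 980.4 CPM in precursor-like nuclei and at 413, 421, 389 and 413 CPM in neurons. These 3 classes did not overlap. In microglia Dnm3 stood at 29.4, 25.2, 22.5 and 59.5 CPM, and in perivascular macrophages only 2 UMIs were counted in 136 nuclei, below the 3 UMIs or 22.8 CPM taken as the floor. With those macrophages left out, since so few UMIs set the size of every difference, Dnm3 was higher in oligodendrocytes by 3.13 (SE 0.07, edgeR adjusted p = 1.65e-41), in precursor-like nuclei by 1.85 (SE 0.08, edgeR adjusted p = 1.52e-27) and in neurons by 0.53 (SE 0.08, edgeR adjusted p = 4.10e-08). The microglial difference was -4.46 (SE 0.16, edgeR adjusted p = 1.11e-31) on the same basis. Vascular nuclei, at 434 ± 112 CPM (SD, n = 4), overlapped the neurons and were not called. Dnm3 covers chr1:161982453-162478034 on the minus strand and shares bases with Dnm3os, Gm38304 and 2810442N19Rik on the other strand, and whether the counting used strand is not stated, so their reads may be mixed.

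**Figure D2:**
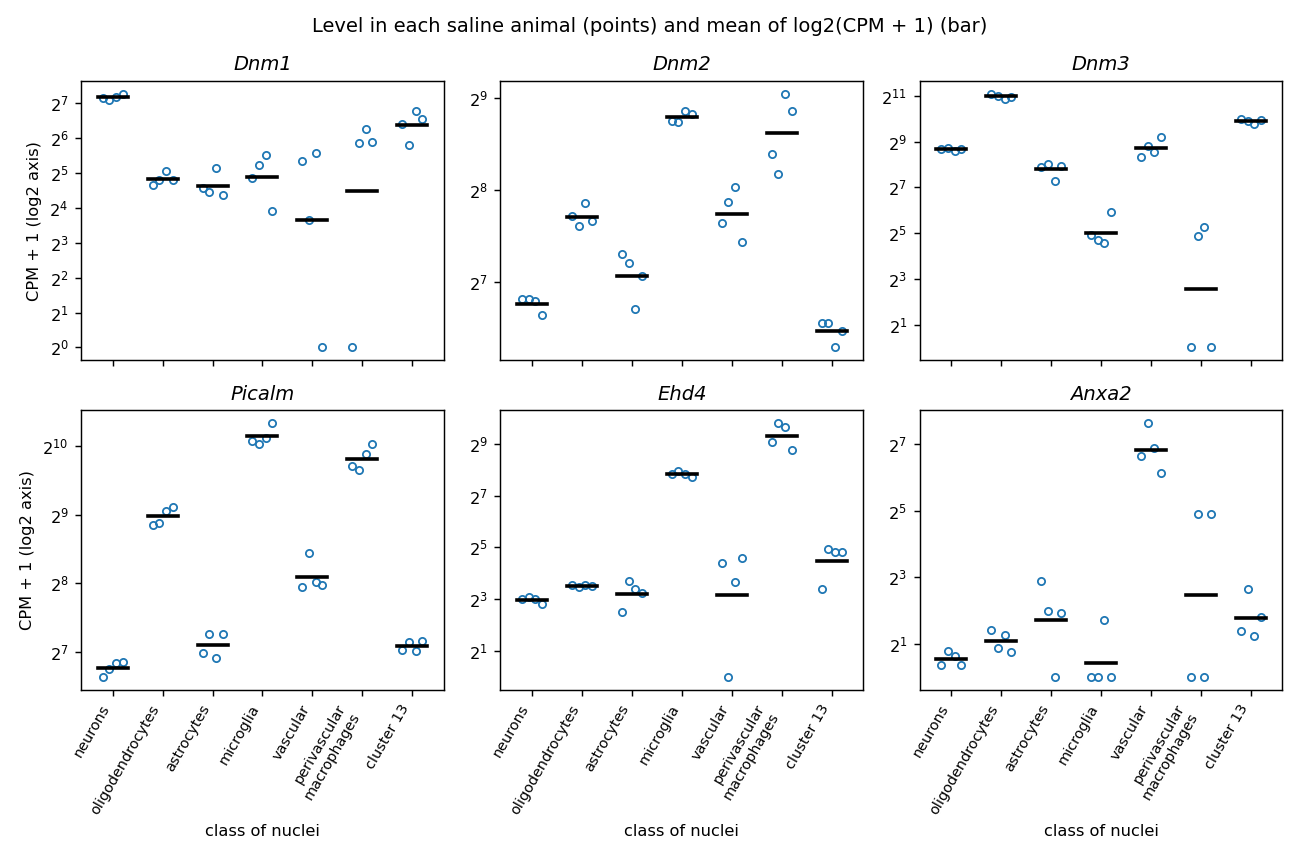
CPM + 1 (log axis) of Dnm1, Dnm2, Dnm3, Picalm, Ehd4 and Anxa2 in each of the 4 saline animals (points) by class of nuclei. The highest class was neurons for Dnm1, microglia for Dnm2 and Picalm, oligodendrocytes for Dnm3, perivascular macrophages for Ehd4 and vascular nuclei for Anxa2.

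Of the 4 early endosome genes only Rab5c was called under all settings, in 2 of the group's 28 gene and class pairs (7.14%, against 23.2% of all such pairs). Rab5c, a form of the GTPase that marks early endosomes, stood at 45.8, 49.0, 47.2 and 56.7 CPM in microglia and at 12.9, 15.0, 12.9 and 12.2 CPM in neurons, with no overlap. Its differences from the other classes were 0.93 (SE 0.20, edgeR adjusted p = 7.22e-05) in microglia and -0.75 (SE 0.16, edgeR adjusted p = 4.57e-05) in neurons. Rab5a and Rab5b, the other forms, had class means of 48.2 to 99.3 and 48.1 to 108 CPM, lowest in neurons in both cases, but with no call that held under all settings. Eea1, the tether that docks vesicles to early endosomes, stood at 74.7, 68.8, 67.8 and 73.2 CPM in neurons and at 195, 200.3, 188 and 261 CPM in perivascular macrophages. All neuronal animals were below all macrophage animals. Its neuronal difference was -0.34 (SE 0.08, edgeR adjusted p = 1.76e-04) and was lost without saline replicate 1.

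Among recycling genes, Ehd4 separated the macrophages from every other class. Ehd4 is an EHD ATPase that shapes recycling tubules. It stood at 529.9, 887, 790.3 and 435 CPM in perivascular macrophages and at 229, 248, 229 and 207 CPM in microglia. It stood at 7.10, 7.40, 7.12 and 6.04 CPM in neurons, at 10.7, 10.2, 10.7 and 10.3 CPM in oligodendrocytes and at 9.52, 29.3, 27.0 and 27.1 CPM in precursor-like nuclei. The lowest microglial animal was above the highest animal of the 5 classes that are not macrophages, and the differences were 4.37 (SE 0.27, edgeR adjusted p = 9.46e-24) and 3.32 (SE 0.13, edgeR adjusted p = 1.55e-35). Its relative Ehd3 was instead highest in precursor-like nuclei, at 30.9, 47.0, 32.4 and 45.5 CPM, and in vascular nuclei, at 53.0, 11.6, 59.0 and 45.7 CPM, which overlapped. In microglia Ehd3 stood at 4.91, 2.80, 4.49 and 0 CPM, and in perivascular macrophages only 1 UMI was counted. With those macrophages left out, Ehd3 was higher in precursor-like nuclei by 1.98 (SE 0.21, edgeR adjusted p = 5.04e-12). Ehd1, which acts in the exit from the recycling compartment, was higher in oligodendrocytes by 0.81 (SE 0.19), and its difference in microglia was -2.23 (SE 0.48), from 7 UMIs.

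The 2 forms of Rab4, the GTPase of fast recycling, were called in opposite directions in neurons. Rab4a stood at 24.4, 22.4, 20.8 and 21.9 CPM in neurons and was higher there than in the mean of the other classes by 0.78 (SE 0.13, edgeR adjusted p = 4.72e-07), computed without perivascular macrophages, where it had 2 UMIs. Rab4b stood at 22.9, 22.2, 26.0 and 16.9 CPM in neurons, 59.3, 59.9, 67.2 and 47.0 CPM in oligodendrocytes and 68.7, 85.5, 78.6 and 65.2 CPM in microglia. Every oligodendrocyte and microglial animal lay above every neuronal animal, and the Rab4b difference was -0.72 (SE 0.15, edgeR adjusted p = 1.24e-05) in neurons and 0.78 (SE 0.11, edgeR adjusted p = 1.24e-08) in oligodendrocytes. Rab11a and Rab11b, GTPases of the slower recycling route, were both lower in neurons, with log2 differences of -0.64 (SE 0.11) and -0.67 (SE 0.12) and neuronal means of 33.6 ± 1.36 and 33.3 ± 4.21 CPM (SD, n = 4). Rab35, a further GTPase of fast recycling, had class means of 7.47 to 42.6 CPM.

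The sorting nexins Snx2 and Snx1 had their highest levels in different classes. Snx2, a membrane-bending nexin that works with retromer, stood at 1059.9, 859, 1618 and 638 CPM in perivascular macrophages and at 178, 209, 171 and 221 CPM in microglia. In neurons it stood at 56.1, 55.9, 55.7 and 58.0 CPM. The perivascular macrophages of every animal lay above all other classes, and the differences were 2.63 (SE 0.19, edgeR adjusted p = 8.94e-20) in perivascular macrophages and -1.0 (SE 0.09, edgeR adjusted p = 1.51e-17) in neurons. With those macrophages left out, the neuronal difference of Snx2 was -0.57 (SE 0.08, edgeR adjusted p = 1.27e-08). Snx1, a related nexin, was highest in precursor-like nuclei, at 251, 230.0, 227 and 245 CPM, followed by oligodendrocytes at 198, 189, 205 and 213 CPM. Neurons had 52.7, 52.0, 59.1 and 53.4 CPM. Precursor-like nuclei were above every animal of the other classes, oligodendrocytes above every animal of the remaining ones, and the differences were 1.74 (SE 0.10, edgeR adjusted p = 2.82e-27) and 1.45 (SE 0.08, edgeR adjusted p = 1.57e-26). Snx3, which recruits retromer to early endosomes, had class means of 74.3 to 187 CPM.

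Of the 3 retromer subunits, Vps26a was called in 2 classes. It stood at 62.1, 75.7, 74.1 and 82.2 CPM in microglia and at 17.9, 20.1, 19.1 and 18.0 CPM in neurons, without overlap. The differences were 1.02 (SE 0.17, edgeR adjusted p = 4.78e-07) and -0.75 (SE 0.15, edgeR adjusted p = 6.89e-06). Vps35, the scaffold, had means from 42.9 ± 1.49 CPM in neurons to 117 ± 101 CPM in perivascular macrophages, and Vps29 from 29.7 ± 1.50 in neurons to 76.6 ± 39.5 CPM in vascular nuclei (SD, n = 4).

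The ESCRT genes, which sort ubiquitinated cargo into the lumen of endosomes, had 1 call in 35 gene and class pairs (2.86%, against 23.2% of all such pairs). Hgs and Stam together form the first ESCRT complex, Tsg101 belongs to the next, and the ATPases Vps4a and Vps4b take the machinery apart. Hgs stood at 17.8, 17.9, 18.1 and 14.9 CPM in neurons, 20.8, 18.6, 18.1 and 17.4 CPM in oligodendrocytes and 31.1, 23.8, 20.2 and 34.0 CPM in microglia. It was called in no class in the TMM fit. Stam and Tsg101 had class means of 42.4 to 69.2 and 42.4 to 93.2 CPM. Vps4b was higher in oligodendrocytes by 0.60 (SE 0.10, edgeR adjusted p = 2.88e-07), at 74.2 ± 7.49 CPM (SD, n = 4), and this was the only ESCRT call that held under all settings. Its mean was higher still in microglia, at 80.8 ± 18.8 CPM, and in perivascular macrophages, at 114 ± 62.0 CPM (SD, n = 4), where animals ranged widely and overlapped the oligodendrocytes. Vps4a had means of 16.4 to 25.1 CPM in the other 6 classes, without a call once perivascular macrophages were left out. It stood at 17.8, 17.4, 15.0 and 15.5 CPM in neurons, 26.2, 18.2, 24.7 and 14.2 CPM in microglia and 19.9, 11.6, 11.8 and 57.2 CPM in vascular nuclei, which overlapped. It had 0 of 131840 UMIs in perivascular macrophages, below the floor of 3 UMIs or 22.8 CPM, and its wide range across classes rests on that 0.

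The mannose phosphate receptor Igf2r and the annexin Anxa2 were the only members called higher in vascular nuclei. Igf2r, which carries lysosomal enzymes to endosomes, stood at 192, 197, 94.4 and 114 CPM in vascular nuclei, 46.8, 45.0, 36.5 and 34.4 CPM in precursor-like nuclei and 32.8, 32.9, 33.5 and 29.2 CPM in neurons. Every vascular animal lay above all others, and the differences, computed without perivascular macrophages, were 2.78 (SE 0.27, edgeR adjusted p = 1.34e-12) in vascular nuclei and 1.09 (SE 0.18, edgeR adjusted p = 1.23e-06) in precursor-like nuclei. Perivascular macrophages had 0 UMIs of Igf2r, again below the floor of 22.8 CPM, and microglia had 7 UMIs. Igf2r (chr17:12682406-12769664, minus strand) shares 28354 bases with the antisense gene Airn, and its counts are uncertain to that extent. Of the 39 members, 13 overlap another gene of the matrix on the opposite strand, with Dnm1, Ap2a2 and Rab7 among them. The same limit applies to their counts. Anxa2, a calcium-dependent membrane binder of endosomes, stood at 99.4, 197, 118 and 68.6 CPM in vascular nuclei and at 0.293, 0.715, 0.541 and 0.288 CPM in neurons. All 4 vascular animals were above all others, and the difference, without perivascular macrophages (2 UMIs), was 6.15 (SE 0.41, edgeR adjusted p = 9.35e-19), from 48 vascular UMIs. Microglia, with 1 UMI of Anxa2, remain in that mean, so the size of the difference is uncertain. Rab7, the GTPase of late endosomes, stood at 139, 132, 141 and 136 CPM in microglia and 50.8, 55.4, 63.5 and 45.5 CPM in precursor-like nuclei, with differences of 0.63 (SE 0.12, edgeR adjusted p = 4.95e-06) and -0.61 (SE 0.13, edgeR adjusted p = 4.02e-05). M6pr, the smaller mannose phosphate receptor, had class means of 12.3 to 46.0 CPM.

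Vascular nuclei were split by their highest marker list, and the UMIs of 59 endothelial, 96 mural and 179 fibroblast-like saline nuclei were summed. Counts are pooled over the 4 animals with exact Poisson 95% intervals, which cover counting error only. Members with separate intervals in any pair of subsets were Rab5b, Snx3, Dnm3, Igf2r, Dnm2 and Rab11a. For every other member the intervals of all subsets overlapped. Rab5b had 109 CPM (69.9 to 162) in fibroblast-like nuclei and 1 UMI (0.279 to 61.4 CPM) in endothelial nuclei. Snx3 had 253 CPM (161 to 380) in endothelial and 77.3 CPM (45.0 to 124) in fibroblast-like nuclei. Dnm3 had 125 UMIs or 1377 CPM (1146 to 1641) in endothelial nuclei, 13 UMIs or 142 CPM (75.8 to 244) in mural nuclei and 32 UMIs or 146 CPM (99.5 to 205) in fibroblast-like nuclei, and the endothelial interval lay above both others. Igf2r had 29 UMIs or 318 CPM (213 to 456) in mural nuclei, 29 UMIs or 132 CPM (88.3 to 189) in fibroblast-like nuclei and 6 UMIs or 66.1 CPM (24.3 to 144) in endothelial nuclei, and the mural interval lay above both others. Anxa2 had 8 UMIs or 88.1 CPM (38.1 to 174) in endothelial, 7 UMIs or 76.7 CPM (30.8 to 158) in mural and 32 UMIs or 146 CPM (99.5 to 205) in fibroblast-like nuclei, and these intervals overlapped. Dnm2 had 36 UMIs or 397 CPM (278 to 549) in endothelial, 21 UMIs or 230.0 CPM (142 to 352) in mural and 30 UMIs or 136 CPM (92.0 to 195) in fibroblast-like nuclei, and the mural interval overlapped both others. Rab11a had 20 UMIs or 220.4 CPM (135 to 340.3) in endothelial, 6 UMIs or 65.7 CPM (24.1 to 143) in mural and 10 UMIs or 45.5 CPM (21.8 to 83.6) in fibroblast-like nuclei, where the mural interval again overlapped both. Tfrc, the mouse transferrin receptor gene, is no member and is given as a reference. All animals carried the human receptor knock-in, and whether reads of that allele were counted under Tfrc is not stated. Tfrc stood at 13.3, 69.5, 35.4 and 34.3 CPM in all vascular nuclei and 29.6, 29.7, 23.9 and 28.7 CPM in neurons of the saline animals. By subset it had 11 UMIs or 121 CPM (60.5 to 217) in endothelial nuclei, 1 UMI (0.277 to 61.0 CPM) in mural nuclei and 2 UMIs (1.1 to 32.9 CPM) in fibroblast-like nuclei, and the endothelial and mural intervals overlapped slightly. Astrocyte markers summed to 2939 CPM in the vascular class against 9417 CPM in astrocytes, and their part in these levels was not tested.

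Paralogs and complex partners were set side by side over the 19 deposited clusters that remain without the small cluster 19, as Pearson r of mean log2(CPM + 1) in saline. The clusters share libraries and differ in depth. Among them are the doublet-rich clusters 17 and 18 and cluster 16, where saline levels varied widely between animals. The values of r are therefore descriptions, given beside r over the 7 classes. Rab5a, Rab5b and Rab5c ran together (r = 0.89 to 0.93, and 0.86 to 0.94 over classes). The retromer subunits had 0.78 to 0.87, but over classes Vps35 with Vps29 had 0.88, Vps35 with Vps26a 0.30 and Vps26a with Vps29 -0.18. Of the 10 pairs of AP-2 subunits, Ap2m1 with Ap2s1 had 0.89 and the other 9 ran from -0.39 (Ap2a1 with Ap2m1) to 0.48 (Ap2a2 with Ap2b1). Over classes the order was another, with 0.86 for Ap2a2 with Ap2b1, 0.62 for Ap2a1 with Ap2s1, 0.56 for Ap2m1 with Ap2s1 and the other 7 from -0.48 to 0.47. In cluster 16 Ap2a1 averaged 22.0 ± 34.6 CPM (SD, n = 4), against 36.5 to 53.2 CPM in the other 18 clusters. Ap2m1 had its highest mean in cluster 16, at 51.3 ± 29.7 CPM (SD, n = 4). The part of cluster 16 in the r of -0.39 was not tested. Dnm1 and Dnm2 ran opposite to each other (-0.79, and -0.63 over classes), as did Clta and Cltb (-0.54 and -0.64), and Rab4a with Rab4b had -0.11 and 0.11. The median over all pairs of the 37 members of at least 10 CPM was 0.276, and over all pairs of the 10331 such genes 0.072. The genes most like each group's widest-ranging member over these clusters were Cept1, Wdfy2 and Slc25a45 for Picalm (r = 0.97 to 0.98), Fsd1l, Gm48512 and Sema6a for Dnm3 (0.93 to 0.95), and Tm9sf3, Rab14 and 2410004B18Rik for Rab5c (0.96). They were Anapc15, Dnase2a and Sppl3 for Ehd4 (0.96), Bckdha, Stag2 and Ddx6 for Snx2 (0.97), Iars2, Yipf6 and Farsa for Vps4a (0.98), and Hmgn3, Zkscan2 and Airn for Igf2r (0.92 to 0.93). Vps4a averaged 3.03 ± 6.06 CPM (SD, n = 4) in cluster 16 and 15.3 to 22.3 CPM in the other 18 clusters, so its values of r rest on cluster 16.

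Levels also differed among the 11 neuronal clusters, and the EHD genes and Dnm3 are given as examples chosen after their values were seen, with no test. Ehd3 averaged 51.0 ± 6.78 CPM (SD, n = 4 animals) in cluster 9 and 9.90 ± 3.19 in cluster 3, and Ehd1 29.2 ± 1.71 in cluster 9 and 2.28 ± 0.741 in cluster 12. Dnm3 averaged 745 ± 307 CPM in cluster 16 and 199 ± 18.1 in cluster 9. Saline levels in cluster 16 varied widely between animals, with Rab35 at 6.69 ± 13.4 and M6pr at 10.0 ± 20.1 CPM (SD, n = 4 animals). Its Dnm3 mean is uncertain for that reason.

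Across all 39 members, counts from the TMM fit alone moved with the scaling. In that fit 19 members were higher in microglia and 6 lower (30.4% and 14.7% of all genes), and 11 were higher in neurons and 21 lower (41.2% and 22.4%). Oligodendrocytes had 18 higher and 7 lower (35.6% and 18.9%), astrocytes 0 and 13 (23.7% and 12.4%), and precursor-like nuclei 7 and 13 (27.5% and 14.2%). Vascular nuclei had 4 higher and 3 lower (16.6% and 7.91%) and perivascular macrophages 6 and 4 (8.37% and 14.9%). The median difference of the members was -0.32 in neurons against 0.21 over all genes, 0.39 in microglia against 0.17, and -0.39 in astrocytes against 0.09. A wider list of 91 other endocytosis and endosome genes, of which 85 were tested, had 31 higher and 13 lower in microglia, 27 and 27 in neurons, 35 and 13 in oligodendrocytes, and 20 and 18 in astrocytes. It had 21 higher and 24 lower in precursor-like nuclei, 7 and 11 in vascular nuclei, and 12 and 14 in perivascular macrophages. The members' median range between classes was 1.83 on the log2(CPM + 1) scale against 3.13 over all 12368 genes, or 1.55 against 2.16 without perivascular macrophages.

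The saline levels were then set against the Malat1 loss of each class. With OTV:Malat1 the Malat1 share of UMIs fell from 10.3% ± 1.74 (SD, n = 4) to 1.40% ± 0.20 (n = 3) in oligodendrocytes and from 9.75% ± 2.36 to 3.27% ± 0.18 in astrocytes. In microglia it was 5.02% ± 0.98 in saline and 3.41% ± 0.29 with OTV:Malat1, in neurons 6.39% ± 1.49 and 4.29% ± 0.69, and in vascular nuclei 10.2% ± 1.48 and 7.76% ± 0.79. On the log2(CPM + 1) scale the OTV:Malat1 loss was 2.87 in oligodendrocytes, 1.54 in astrocytes, 0.63 in perivascular macrophages and 0.55 in neurons. It was 0.54 in microglia, 0.39 in vascular nuclei and 0.22 in precursor-like nuclei. With anti-TfR:Malat1 the loss ran from 0.006 in precursor-like nuclei to 0.63 in astrocytes. Against saline, the Malat1 change passed the adjusted threshold in edgeR only in oligodendrocytes and astrocytes with OTV:Malat1. With anti-TfR:Malat1 it passed in no class. The ranks of the losses that were not called are therefore uncertain.

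The classes' order by member level was compared with their order by Malat1 loss. The median Spearman rho over the 39 members was 0.04 for OTV:Malat1 over 7 classes, with -0.04 over all genes, and 0.18 for anti-TfR:Malat1, with 0.07 over all genes. Members ran from -0.57 (Ehd3, Vps4a and Igf2r) to 0.54 (Stam) for OTV:Malat1, and 21 were above 0. Computed from each saline animal alone, the median was 0.04, 0.04, -0.14 and 0.07. Over the 19 clusters the median was 0.24 for OTV:Malat1, with 0.11 over all genes and 0.23 over the other endocytosis genes, and 34 of 39 members were above 0, from -0.60 for Ap2a2 to 0.59 for Rab7. For anti-TfR:Malat1 it was 0.41 over clusters, with 0.13 over all genes and 0.35 over the other endocytosis genes. Over the same clusters the rho between saline level and UMIs per nucleus had a median of -0.53, with 30 members below 0 and 9 above, from -0.94 for Rab5b to 0.63 for Rab4a. The Malat1 loss had a rho with UMIs per nucleus of -0.04 for OTV:Malat1 and -0.50 for anti-TfR:Malat1, and the part of depth was not tested. Classes and clusters share the libraries of 4 saline and 3 OTV:Malat1 animals, and 11 of the 19 clusters are in the neuronal class.

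**Figure D3:**
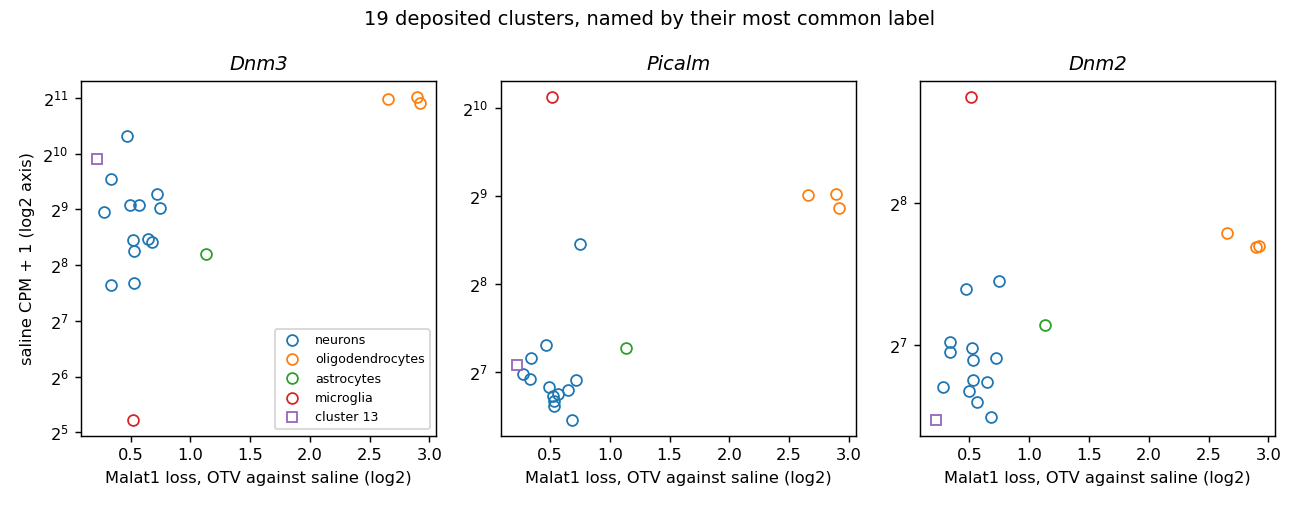
Saline level of Dnm3, Picalm and Dnm2 (mean CPM + 1 of 4 animals on a log2 axis, vertical) against the Malat1 loss with OTV:Malat1 (log2, horizontal) in the 19 deposited clusters (points, coloured by main label). The oligodendrocyte clusters lie far right and are high for Dnm3, whereas the microglial cluster is the highest for Picalm and Dnm2 at a loss of 0.52.

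The treatments were next compared for each member within each class, with all 17 animals in 1 edgeR fit per class. Of 208 tested member and class pairs, covering all 39 members, 0 passed the adjusted threshold of 0.05 in OTV:Malat1 against saline, where 0.006% of all gene and class pairs did (4 of 66629, Malat1 in oligodendrocytes and astrocytes among them). The count was 0 in anti-TfR:Malat1 against saline (0.0% of all), 0 in Malat1 ASO against saline (0.0%) and 0 between the OTV:Malat1 and anti-TfR:Malat1 groups (0.003%). The comparisons with saline share the saline animals. At an unadjusted p under 0.05, edgeR gave 2, 7, 5 and 4 of 208 pairs in that order and DESeq2 2, 1, 1 and 3, and over all genes edgeR gave 2.88%, 2.13%, 1.57% and 3.14%. Summed over all nuclei, the count of members was 0 of 39 in each comparison (0.0% of 21375 genes), and 0 had an unadjusted p under 0.05 in edgeR or DESeq2.

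The intervals limit how large a missed change could be. The median change over the pairs was 0.00, -0.01, -0.01 and 0.01 on the log2 scale, against 0.003, -0.003, -0.003 and 0.009 over all genes, and the 95% interval lay within a 2-fold change either way for 177, 192, 190 and 186 of 208 pairs. In vascular nuclei 18 members were tested and in perivascular macrophages 7, and there 7 and 5 intervals in OTV:Malat1 against saline were that narrow. Groups did not overlap in 4, 1, 5 and 2 pairs (1.92%, 0.481%, 2.40% and 0.962%), against 4.02%, 0.531%, 1.37% and 1.72% of all gene and class pairs. Without overlap, Ap2a2 in oligodendrocytes was higher in OTV:Malat1 than in saline, and Dnm2 in microglia, Picalm in perivascular macrophages and Ehd1 in precursor-like nuclei were lower, none of them called. With anti-TfR:Malat1 only Snx2 in neurons lay wholly below saline, and with Malat1 ASO Dnm2 and Vps26a in microglia, Clta in perivascular macrophages, and Vps4b and Ap2a1 in precursor-like nuclei did. Between the conjugates, Rab11b in microglia was lower and Ehd4 in precursor-like nuclei higher with OTV:Malat1. Pairs filtered out for low counts were not tested and are not in these lists. Among those, Ap2b1 in perivascular macrophages stood at 226 to 290 CPM in saline and 0 to 138 CPM in Malat1 ASO, from 35 and 7 UMIs. Dnm1 in vascular nuclei stood at 0 to 47.2 CPM in saline and 52.5 to 85.9 CPM in OTV:Malat1, from 11 and 16 UMIs. The other endocytosis genes also had 0 calls among 448 pairs in each comparison, with 9, 8, 5 and 11 at an unadjusted p under 0.05.

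**Figure D4:**
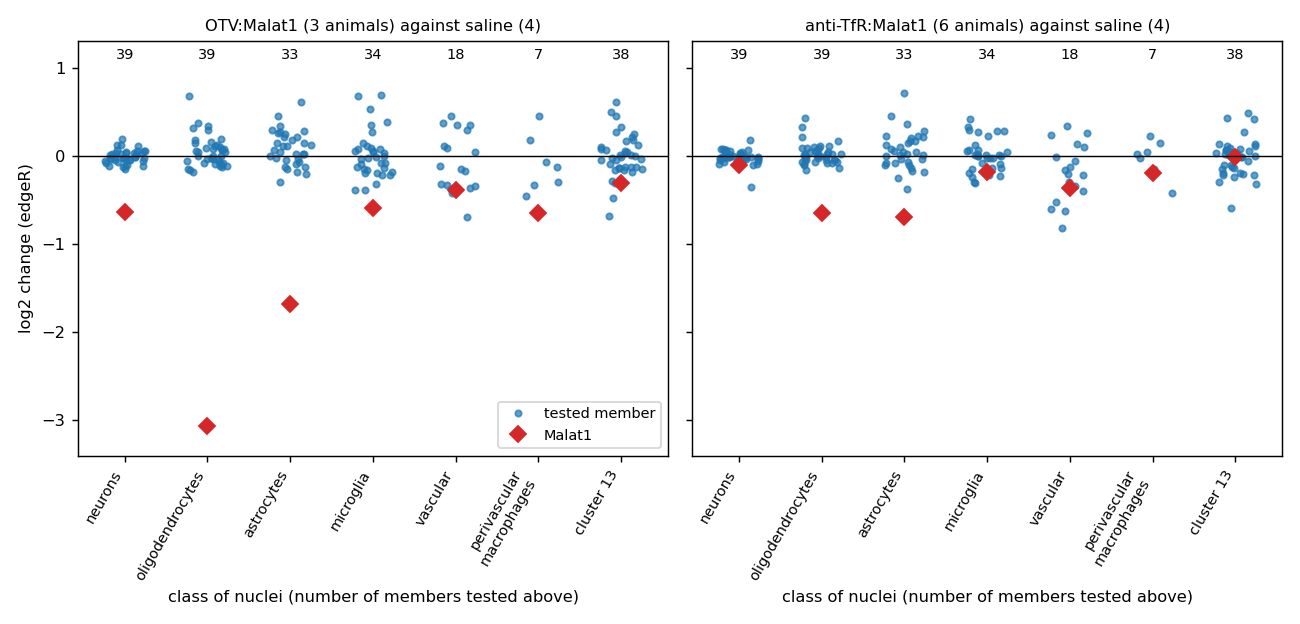
Log2 change of each tested member (points) by class of nuclei, in OTV:Malat1 against saline and in anti-TfR:Malat1 against saline, with Malat1 as diamonds. The members lie around 0 in each class, between -0.69 and 0.69 with OTV:Malat1, while Malat1 falls by 3.07 in oligodendrocytes.

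In oligodendrocytes, the class with the largest Malat1 loss in OTV:Malat1, Cltb, Clta and Anxa2 had the smallest p for OTV:Malat1 against saline. Cltb stood at 52.4, 53.2, 56.8 and 37.4 CPM in saline, 58.0, 50.2, 59.0 and 45.3 CPM in Malat1 ASO and 56.2, 78.2 and 56.7 CPM in OTV:Malat1. In anti-TfR:Malat1 it was 44.3 at the lowest, 52.9 at the median and 62.7 at the highest. The OTV:Malat1 range overlapped the saline range, with 1 animal standing above the others, and the change was 0.30 (SE 0.14, edgeR adjusted p = 0.967). Clta stood at 81.2, 91.1, 100.2 and 68.3 CPM in saline and 94.4, 151 and 91.0 CPM in OTV:Malat1, with the same animal highest, and its change was 0.34 (SE 0.17, edgeR adjusted p = 0.967). Anxa2 stood at 1.66, 0.825, 1.40 and 0.688 CPM in saline and 2.47, 2.36 and 0.784 CPM in OTV:Malat1, overlapping, with a change of 0.69 (SE 0.46, edgeR adjusted p = 0.967).

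In vascular nuclei, of which 182 of 1203 were endothelial by marker list, the members with the smallest p were Anxa2, Picalm and Eea1. Anxa2 stood at 99.4, 197, 118 and 68.6 CPM in saline, 115, 96.6, 153 and 151 CPM in Malat1 ASO and 94.4, 36.8 and 80.7 CPM in OTV:Malat1. In anti-TfR:Malat1 it was 43.7 at the lowest, 50.3 at the median and 109 at the highest. Each treated group overlapped saline, and the changes from saline were -0.69 (SE 0.45, edgeR adjusted p = 0.999) in OTV:Malat1 and -0.82 (SE 0.37, edgeR adjusted p = 1.00) in anti-TfR:Malat1. Picalm stood at 245, 347, 259 and 252 CPM in saline and 357, 393 and 242 CPM in OTV:Malat1, with a change of 0.35 (SE 0.24, edgeR adjusted p = 0.999). Eea1 stood at 166, 174, 118 and 194 CPM in saline, 85.9, 129, 132 and 132 CPM in Malat1 ASO and 147, 110.5 and 80.7 CPM in OTV:Malat1, with a change of -0.42 (SE 0.35, edgeR adjusted p = 0.999), and neither gene's OTV:Malat1 animals were separate from saline.

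The smallest unadjusted p of any member in OTV:Malat1 against saline belonged to Dnm2 in microglia, which was chosen after its values were seen. Dnm2 stood at 428, 426, 463 and 451 CPM in saline, 386, 397, 392 and 359.6 CPM in Malat1 ASO and 343, 369.6 and 354 CPM in OTV:Malat1. In anti-TfR:Malat1 it was 354 at the lowest, 384 at the median and 426 at the highest. The OTV:Malat1 and Malat1 ASO animals were all below the saline animals, and the anti-TfR:Malat1 range reached them. The change was -0.32 (SE 0.10, edgeR adjusted p = 0.975) in OTV:Malat1, -0.19 (SE 0.09, edgeR adjusted p = 1.00) in anti-TfR:Malat1 and -0.19 (SE 0.09, edgeR adjusted p = 1.00) in Malat1 ASO. Against the saline animal of the same deposited batch the OTV:Malat1 animals were at -0.31, -0.32 and -0.35 in batches 2, 3 and 4, and batch 1 held no OTV:Malat1 animal. None of these changes passed the adjusted threshold.

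Rab4a in astrocytes had an unadjusted p under 0.05 in 3 of the 4 comparisons and was also chosen after its values were seen. It stood at 17.5, 14.9, 15.6 and 25.4 CPM in saline, 38.1, 28.8, 33.6 and 22.2 CPM in Malat1 ASO and 22.4, 12.3 and 14.5 CPM in OTV:Malat1. In anti-TfR:Malat1 it was 18.7 at the lowest, 29.3 at the median and 51.3 at the highest. All groups overlapped. The changes from saline were 0.79 (SE 0.32, edgeR adjusted p = 1.00) in Malat1 ASO, 0.71 (SE 0.31, edgeR adjusted p = 0.999) in anti-TfR:Malat1 and -0.15 (SE 0.39, edgeR adjusted p = 1.00) in OTV:Malat1, and -0.86 (SE 0.34, edgeR adjusted p = 0.996) between the conjugates, none of which was called.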

How the data were processed

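The matrix holds whole-number UMI counts per gene and nucleus as deposited by the authors, and the submitters' processing notes name Cell Ranger 6.0.1, Seurat 4 and mm10. Cell type labels, clusters, batch numbers and doublet calls are those deposited, and doublet calls were kept in. Counts were summed per animal and class in Python 3.11.15, with at least 20 nuclei per animal. Saline UMIs other than Malat1 ranged from 131840 in perivascular macrophages to 200893927 in neurons, so 3 UMIs equal 22.8 CPM in perivascular macrophages and 7.33 CPM in vascular nuclei. Tests used edgeR 4.0.16 (TMM, filterByExpr, quasi-likelihood) in R 4.3.3 over all genes, with Benjamini-Hochberg adjustment and Malat1 left out of the class comparison. DESeq2 1.42.0 was an alternative. Levels and correlations used log2(CPM + 1).

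On simulated data the tests recovered 62% of genes changed by 1 and 93% of genes changed by 2 on the log2 scale in oligodendrocytes with OTV:Malat1 (13865 genes). The shares were 23.2% and 78.4% in vascular nuclei (3069 genes), and 91.4% and 98.0% for oligodendrocytes against the other classes (11124 genes). In the class simulation all classes had the same mean profile apart from the changed genes, and only the TMM fit was run. Its shares therefore do not cover the differences between scalings or the rule of calls held under all settings.

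Members and lists were chosen with earlier results of these data known. Values per animal were given for the 2 members of each role group with the widest range across classes, and, since no member passed in a treatment comparison, for the 3 with the smallest p in oligodendrocytes and in vascular nuclei with OTV:Malat1. Those of Dnm2, Cltc, Clta, Cltb, Rab4a, Rab4b, Snx1 and Rab7, and the rule of calls held under all settings, were added after their values were seen. The 3 genes most like a member were those of highest Pearson r. Gene positions are from GENCODE on GRCm38, and promoter sequences from RefSeq on GRCm38.p6. Protein identity of paralogs was not analysed here.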

Additional observations from a re-analysis of the deposited data

Results flagged for a closer look

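In 10 of 115 groups of animals checked (8.70%), 1 animal stood apart from the rest of its group by Dixon's criterion, which chance meets in about 1 of 20 groups. Among clathrin and early endosome genes, Picalm in vascular nuclei stood at 347 CPM in saline replicate 2, against 245 to 259 CPM in the other 3 saline animals. Eea1 stood at 261 CPM in perivascular macrophages of saline replicate 4, against 188 to 200.3 CPM. In vascular nuclei Eea1 stood at 85.9 CPM in Malat1 ASO replicate 1, against 129 to 132 CPM.

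Among recycling genes, Ehd4 stood at 9.52 CPM in precursor-like nuclei of saline replicate 1, against 27.0 to 29.3 CPM. Ehd3 stood at 8.31 CPM in oligodendrocytes of saline replicate 1, against 11.4 to 11.9 CPM, and at 29.0 CPM, from 1 UMI, in perivascular macrophages of saline replicate 4, where the others had 0.

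Snx2 stood at 61.5 CPM in precursor-like nuclei of saline replicate 4, against 68.9 to 70.0 CPM. Hgs stood at 14.9 CPM in neurons of saline replicate 4, against 17.8 to 18.1 CPM, and at 8.93 CPM in astrocytes of saline replicate 2, against 15.6 to 16.9 CPM. Anxa2 stood at 2.25 CPM, from 1 UMI, in microglia of saline replicate 3, with 0 in the other 3 animals.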

How the results depend on the processing

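No treatment comparison called a member under any of the 148 alternatives run, the lowest adjusted p being 0.702. Class counts from the TMM fit depended on the scaling. With library totals only, members higher fell to 5 from 11 in neurons and to 6 from 18 in oligodendrocytes. Members higher rose to 9 from 4 in vascular nuclei and to 13 from 6 in perivascular macrophages. This alternative was chosen after seeing the data. The share of all genes higher moved the same way, to 26.2% from 41.2% in neurons and to 20.2% from 35.6% in oligodendrocytes. That share rose to 23.2% from 16.6% in vascular nuclei and to 13.98% from 8.37% in perivascular macrophages. Members lower became 11 in oligodendrocytes (from 7), 0 in vascular nuclei (from 3), 1 in perivascular macrophages (from 4) and 23 in precursor-like nuclei (from 13). The share of all genes lower again moved the same way, to 27.8% from 18.9% in oligodendrocytes and to 4.24% from 7.91% in vascular nuclei. It became 4.77% in perivascular macrophages (from 14.9%) and 27.7% in precursor-like nuclei (from 14.2%). In microglia DESeq2 gave 9 higher (from 19) and 10 lower (from 6), and RLE 10 higher. With RLE the share of all genes higher in microglia fell to 20.6% from 30.4%, and the share lower rose to 22.1% from 14.7%. Lower calls in vascular nuclei numbered 1 with DESeq2, 6 with no filter on low counts and 5 with labels as given, and in perivascular macrophages 1 with DESeq2 and 2 with no filter. For DESeq2, no filter and labels as given, the shares of all genes are not given here. The causes were not tested.

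Leaving out 1 saline animal gave 8 to 11 members higher and 15 to 19 lower in neurons, 15 to 17 and 5 to 6 in oligodendrocytes, 0 and 8 to 13 in astrocytes, 10 to 18 and 4 to 6 in microglia, 3 to 5 and 1 to 3 in vascular nuclei, 6 and 1 to 3 in perivascular macrophages, and 6 to 7 and 8 to 11 in precursor-like nuclei. The lowest counts came without replicate 1 in astrocytes (8) and microglia (10 higher), without replicate 3 or 4 in vascular nuclei (1), without replicate 4 in perivascular macrophages (1) and without replicate 1 or 4 in precursor-like nuclei (8). The shares of all genes in these fits are not given here, so these ranges are not a result about the members.

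Of the class differences of named genes, 676 values kept direction and side of the threshold, 81 lost the call and 5 changed sign. Ap2a2 in neurons became -0.11 with library totals. Dnm3 in vascular nuclei became -0.18 with nuclei of 1000 or more UMIs, -0.089 with labels as given and -0.20 without perivascular macrophages, an alternative chosen after seeing the data. Vps4a in neurons became -0.022 without perivascular macrophages, where it has 0 UMIs. The median rho with Malat1 loss rose over deposited clusters to 0.24 for OTV:Malat1 and 0.41 for anti-TfR:Malat1, and was 0.029 for anti-TfR:Malat1 with labels as given.

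Animals of the same replicate number deviated together in no pair of groups throughout (saline and Malat1 ASO, r = -0.05 to 0.62), so the numbers were not taken to pair them. Animals of the same deposited batch did so in all 5 pairs of anti-TfR:Malat1 with OTV:Malat1 (r = 0.12 to 0.58) and all 3 of Malat1 ASO with OTV:Malat1 (0.21 to 0.34), but not in all pairs of the other groups. With the replicate block 0 members were called, with lowest adjusted p in edgeR of 0.889, 0.932, 0.972 and 0.814 in the order of the comparisons, and with the deposited batch as a block 0.925, 0.992, 0.936 and 0.868. Depth limits perivascular macrophages, where 7 members could be tested, and vascular nuclei, where 18 could.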
